A study of Mus musculus with 6 samples.

Results

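The STAT and JAK family is represented here by 9 genes, *Stat2*, *Stat3*, *Stat4*, *Stat5a*, *Stat5b*, *Stat6*, *Jak1*, *Jak2* and *Tyk2*, whose symbols were matched exactly among the 44556 genes of the count tables. Of these 9 members, 6 encode STAT transcription factors and 3 encode Janus kinases. All 9 had a row in every library, and 8 passed the filter for low counts that left 15600 genes to be tested. RNA-seq was carried out on parietal bone, a flat bone of the skull vault, from newborn C57BL/6 mice, with 3 libraries labelled OsxCre and 3 labelled OsxCre;Stat3fl/fl from littermates. Both genotypes carry Cre recombinase under the *Osx* promoter, which is active mainly in osteoblast precursors, so that the controls share the transgene. The OsxCre;Stat3fl/fl mice also carry *Stat3* alleles with loxP sites around exons 18 to 20, which Cre removes. Cells of the bone in which *Osx* has never been active, nor in the cells they came from, keep these exons. The comparison asks how the loss of *Stat3* in the osteoblast lineage changed the RNA of the tissue, and here whether the STAT and JAK genes themselves changed.

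In JAK-STAT signalling, a cytokine or growth factor brings its receptor chains together, and the Janus kinases bound to those chains phosphorylate the receptor tails. STAT proteins dock there through their SH2 domains, are phosphorylated in turn, form dimers and bind DNA in the nucleus, where they also turn on SOCS genes whose products shut the signal off. In bone, the gp130 cytokines act through STAT3 in osteoblasts and osteoclasts, and growth hormone acts through STAT5.

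The exons that the *Stat3* alleles lose are shown because the reading of the *Stat3* counts turns on them. They were read from the protein-coding transcript Stat3-001 of GENCODE M1 on the NCBIM37 (mm9) genome, in the sense of the transcript. Capitals mark the bases matched by the primer pair that the study used for RT-PCR of *Stat3*, the forward primer in exon 19 and the reverse primer, read on the opposite strand, in exon 20.
Exon 18: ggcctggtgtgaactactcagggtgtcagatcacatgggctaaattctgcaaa
Exon 19: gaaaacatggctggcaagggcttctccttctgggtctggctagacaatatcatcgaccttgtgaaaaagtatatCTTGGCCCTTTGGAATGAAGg
Exon 20: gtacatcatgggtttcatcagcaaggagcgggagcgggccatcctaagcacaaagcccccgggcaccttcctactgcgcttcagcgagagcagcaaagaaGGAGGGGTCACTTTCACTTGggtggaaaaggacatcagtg

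These exons hold 53, 95 and 140 bases, all of them coding, 288 bases in all, a multiple of 3. The forward primer covers bases 2036 to 2055 of the transcript and the reverse primer bases 2157 to 2176. The product of 141 bases therefore lies wholly within the loxP-flanked exons, so that RT-PCR with this pair reads only transcripts that keep them. The deposited counts were given for the whole gene. The 288 bases make up 6.38% of the 4516 bases of Stat3-001, 4.77% of the 6042 bases of Stat3-002 and 9.84% of the 2927 bases of Stat3-010, each of which has 24 exons. If reads fell evenly along a transcript, its loss of these exons alone, with its level unchanged, would lower the log2 count, changing it by -0.095, -0.070 and -0.15 in these transcripts. Counts per exon were not analysed here.

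**Figure D1:**
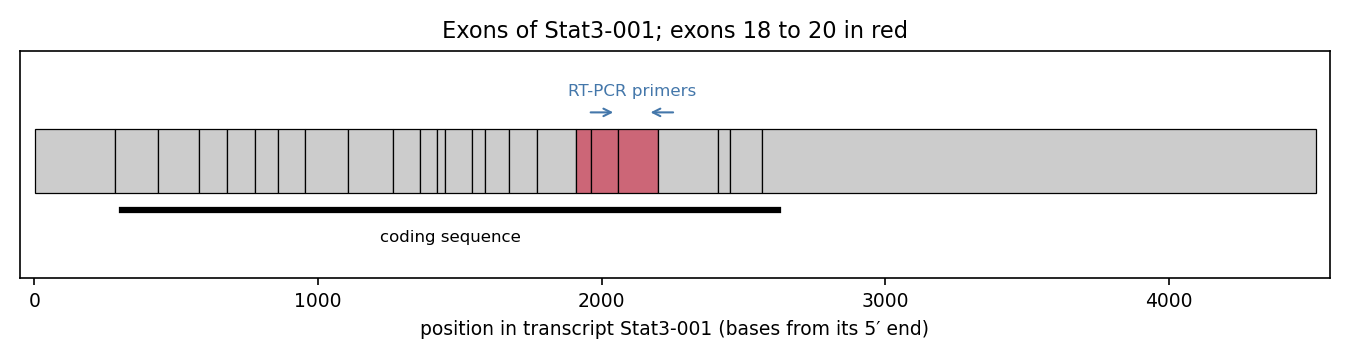
Exons of transcript Stat3-001 drawn to scale, with bases from its 5′ end on the horizontal axis, exons 18 to 20 in red, the coding sequence as a black bar and the RT-PCR primers as blue arrows. The primers lie inside the 288 red bases of a transcript of 4516 bases.

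The whole-gene *Stat3* count was not lower in the libraries labelled OsxCre;Stat3fl/fl. *Stat3* had 1575, 1357 and 1685 counts in OsxCre libraries 1, 2 and 3, and 1273, 1262 and 1328 counts in the libraries labelled OsxCre;Stat3fl/fl. After scaling for library size with edgeR's TMM method, these were 150, 135 and 141 CPM (counts per 1000000 counts of the scaled library) in OsxCre and 153, 155 and 155 CPM in the libraries labelled OsxCre;Stat3fl/fl. All 3 of the latter lay above all 3 controls. The means were 142 ± 7.68 and 154 ± 1.27 CPM (SD, n = 3 each), which gives a log2 fold change of 0.12 with a 95% interval from -0.041 to 0.28 (standard error 0.070), or 0.972-fold to 1.22-fold. The quasi-likelihood test of edgeR gave an adjusted p of 0.442, and the exact permutation test gave 0.1, the smallest p that 3 libraries against 3 allow. The coefficient of variation among the libraries labelled OsxCre;Stat3fl/fl was 0.820%, below the 2.74% to 2.81% that counting error alone gives at these counts. In 13 other settings the log2 fold change was positive each time, between 0.075 and 0.17, and the lower end of the interval fell to -0.12 without OsxCre library 2. In a bulk sample, fewer cells of a type and less RNA per cell cannot be told apart, and here neither can a loss of exons 18 to 20 in some cells. The counts thus do not check the genotype labels, which are kept as given. The study reported loss of STAT3 protein, by western blot, in cultured bone marrow stem cells of OsxCre;Stat3fl/fl mice, which are not these samples.

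*Stat5a* and *Stat5b*, which encode the paralogous factors that act for growth hormone and prolactin, lie on the same side of *Stat3* on chromosome 11. On GRCm38.p6, *Stat5b* lies on the minus strand at chr11:100780731-100859004, *Stat5a* on the plus strand at chr11:100859351-100885169 and *Stat3* on the minus strand at chr11:100886806-100939594. The gaps between them measure 346 and 1636 bp, and the trio spans 158864 bp. *Stat5a* had 30.4, 34.7 and 44.3 CPM in OsxCre and 30.0, 35.9 and 29.4 CPM in the libraries labelled OsxCre;Stat3fl/fl. *Stat5b* had 75.0, 82.7 and 85.7 CPM in OsxCre and 65.8, 92.8 and 75.7 CPM in the libraries labelled OsxCre;Stat3fl/fl. The groups overlapped for both genes, and *Stat5b* had both its lowest and its highest value in the libraries labelled OsxCre;Stat3fl/fl. For *Stat5a*, the log2 fold change was -0.20 (95% interval -0.56 to 0.16, standard error 0.15, edgeR adjusted p = 0.575), and it was -0.035 without OsxCre library 3. For *Stat5b* it was -0.055 (95% interval -0.35 to 0.24, standard error 0.13, edgeR adjusted p = 0.881), and it was 0.054 without OsxCre;Stat3fl/fl library 1.

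The *Stat5* pair shares much of its sequence. Of 2346 aligned coding bases, 2128 (90.7%) are identical, and the longest identical run is 324 bases. Of the windows of 50 bases in the transcript Stat5a-001, 15.8% also occur in Stat5b-001, and 12.1% the other way round. Because the program that made the deposited counts is not given in the sources used here, the split of counts between the pair is uncertain. *Stat5a* took 30.8 ± 2.85% of the counts of the pair in OsxCre and 29.1 ± 1.96% in the libraries labelled OsxCre;Stat3fl/fl (SD, n = 3 each). Among the controls this share was 28.8% (exact 95% binomial interval 26.2% to 31.6%), 29.6% (27.0% to 32.3%) and 34.1% (31.7% to 36.5%), the highest in library 3. In the libraries labelled OsxCre;Stat3fl/fl it was 31.3% (28.1% to 34.7%), 27.9% (25.2% to 30.7%) and 28.0% (25.0% to 31.0%). The groups overlapped, and the exact permutation test gave p = 0.5. The difference between the group means was -1.76 percentage points, and -0.13 without OsxCre library 3. The intervals cover counting error only.

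*Stat2*, whose product binds DNA in the ISGF3 complex with IRF9 after type I interferon, had 43.6, 40.5 and 41.5 CPM in OsxCre and 55.1, 41.7 and 49.9 CPM in the libraries labelled OsxCre;Stat3fl/fl. A pair of those libraries lay above every control, and the remaining one overlapped with them. The means were 41.9 ± 1.55 and 48.9 ± 6.78 CPM (SD, n = 3 each). This gave a log2 fold change of 0.22 (95% interval -0.031 to 0.48, standard error 0.11), with an unadjusted p of 0.0768 and an edgeR adjusted p of 0.360, the smallest of any member. Without OsxCre;Stat3fl/fl library 2, it was 0.33 with an unadjusted p of 0.00867 and an edgeR adjusted p of 0.176, and without OsxCre;Stat3fl/fl library 1 it was 0.13 with an unadjusted p of 0.257 and an edgeR adjusted p of 0.587.

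*Stat6*, which acts for IL-4 and IL-13, was the least counted of the members tested, with 152, 114 and 125 counts in OsxCre and 95, 146 and 124 counts in the libraries labelled OsxCre;Stat3fl/fl. As CPM these were 14.5, 11.3 and 10.5 against 11.4, 17.9 and 14.5, and the groups overlapped. The log2 fold change of *Stat6* was 0.27 (standard error 0.20, 95% interval -0.20 to 0.74, edgeR adjusted p = 0.557), the widest interval among the members. Its upper end corresponds to 1.67-fold. *Stat4*, which acts for IL-12 in T and NK cells, had 0 counts in the 3 OsxCre libraries and 0, 0 and 1 in the libraries labelled OsxCre;Stat3fl/fl. A floor of 3 counts corresponds to 0.252 to 0.368 CPM in these libraries, so that *Stat4* was not detectable at this depth and was not tested. The 8 marker genes of T and NK cells that were read, *Cd3e* and *Cd2* among them, summed to 1.62 to 2.48 CPM in OsxCre and 1.64 to 2.33 CPM in the libraries labelled OsxCre;Stat3fl/fl, and none of the 8 was at 0 in every library.

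Among the kinases, *Jak1*, which serves gp130, interferon and common gamma chain receptors, had 151, 139 and 148 CPM in OsxCre and 139, 162 and 167 CPM in the libraries labelled OsxCre;Stat3fl/fl. *Jak2*, the kinase of the growth hormone, erythropoietin and leptin receptors, had 61.0, 52.2 and 62.4 CPM in OsxCre and 55.4, 59.0 and 62.0 CPM in the libraries labelled OsxCre;Stat3fl/fl. *Tyk2*, a partner of *Jak1* at interferon receptors, had 41.5, 40.5 and 41.9 CPM in OsxCre and 42.5, 38.9 and 34.3 CPM in the libraries labelled OsxCre;Stat3fl/fl. The groups overlapped for each kinase, and the *Tyk2* values were close together in the controls and more spread in the other group (SD 0.738 and 4.13 CPM). The log2 fold changes were 0.096 for *Jak1* (standard error 0.088, 95% interval -0.11 to 0.30, edgeR adjusted p = 0.647), 0.0046 for *Jak2* (standard error 0.093, 95% interval -0.21 to 0.22, edgeR adjusted p = 0.990) and -0.099 for *Tyk2* (standard error 0.096, 95% interval -0.32 to 0.12, edgeR adjusted p = 0.666). The near-zero *Jak2* value changed sign in 4 of 13 other settings.

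**Figure D2:**
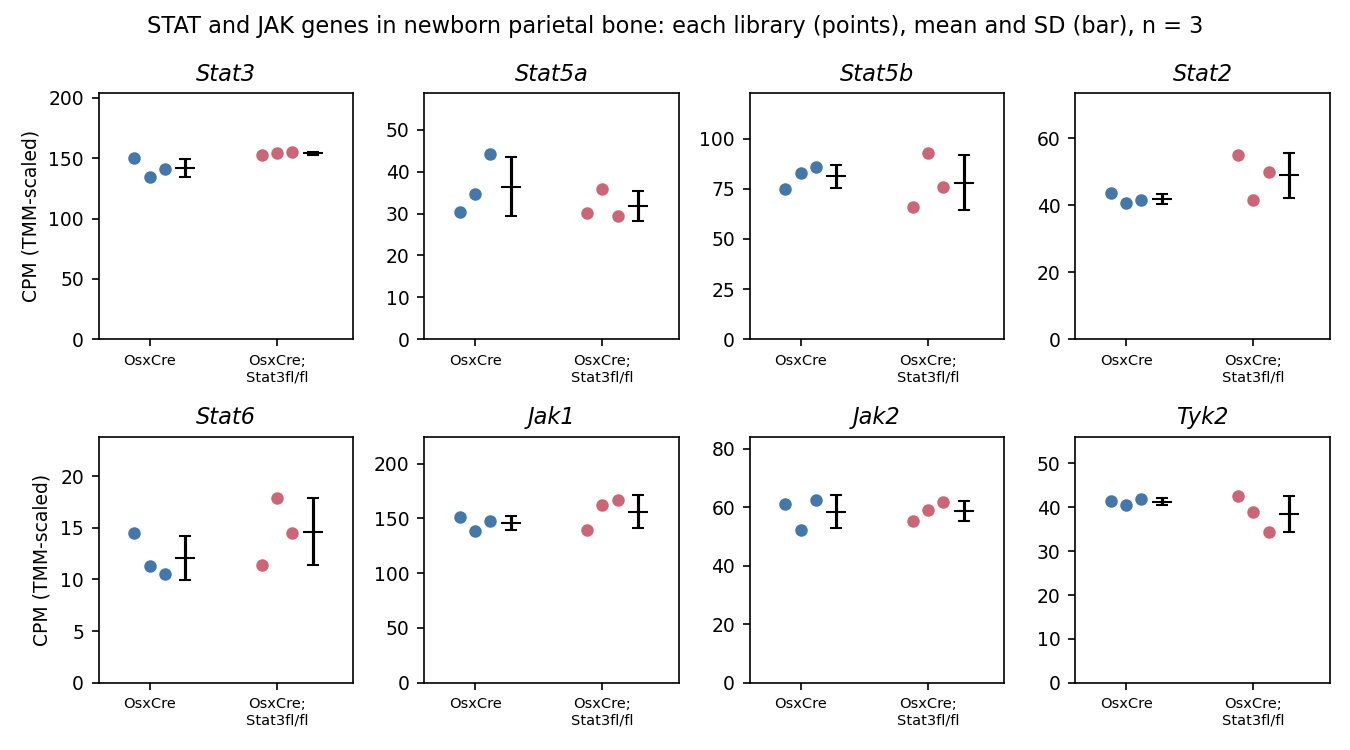
TMM-scaled CPM of the 8 members tested, in each OsxCre (blue) and OsxCre;Stat3fl/fl (red) library, with the mean and SD of 3 libraries as a black bar and each vertical axis starting at 0. The groups separate for *Stat3* alone, where 153 to 155 CPM stand above 135 to 150 CPM.

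Over the family, 0 of the 8 members tested passed an adjusted p of 0.05 in edgeR's quasi-likelihood test, where 196 of all 15600 genes did (1.26%). At an unadjusted p of 0.05, 0 of the 8 passed, against 16.4% of all genes, and DESeq2's Wald test and limma-voom likewise called 0 members at an adjusted p of 0.05. The groups lay apart for 1 of the 8, *Stat3*, against 23.0% of all genes, so that this count does not exceed the background. Of the fold changes, 5 were positive and 3 negative, with a median log2 value of 0.050 beside -0.0037 for all genes tested. In the fit of all 6 libraries, the 95% intervals of 7 members lay within a 1.5-fold change in either direction, and that of *Stat6* did not. For *Stat5a*, the interval went past this line in some fits that left out 1 library. Without OsxCre library 1, for example, its log2 fold change was -0.31 with a standard error of 0.15. The comparison of all 6 libraries therefore bounds the changes of these genes in the whole tissue, rather than showing that none occurred.

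**Figure D3:**
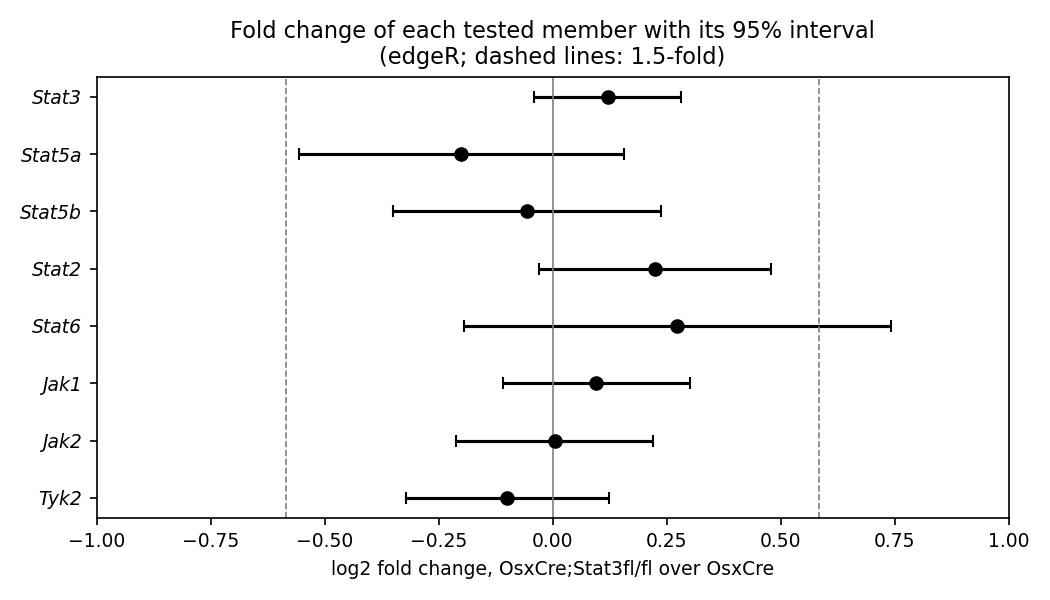
Log2 fold change of each member tested (points) with its 95% interval (bars), on the horizontal axis, with a 1.5-fold change in either direction as dashed lines. Every interval includes 0, and *Stat6* alone crosses a dashed line, with an upper end at 0.74.

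Levels were compared between members only per length, as CPM per kb of the longest protein-coding transcript of GENCODE M1. In OsxCre the order was *Jak1* with 29.8 ± 1.28, *Stat3* with 23.5 ± 1.27, *Stat5b* with 15.6 ± 1.06 and *Jak2* with 11.6 ± 1.10 CPM per kb (SD, n = 3). *Stat2*, *Stat5a* and *Tyk2* followed with 9.51 ± 0.351, 9.38 ± 1.84 and 8.95 ± 0.160 CPM per kb, and *Stat6* with 3.20 ± 0.556 CPM per kb (SD, n = 3 each). *Jak1*, *Stat3* and *Stat5b* thus had the highest mean levels per length. Over the 6 libraries, *Jak2*, *Stat2*, *Stat5a* and *Tyk2* overlapped with their neighbours in this order, whereas the ranges of *Jak1*, *Stat3*, *Stat5b* and *Stat6* did not overlap with those next to them. With the summed length of all exons in place of a single transcript, a choice made after seeing the data, *Jak1* stayed first with 20.2 ± 0.868 CPM per kb in OsxCre (SD, n = 3). *Stat3* then had 14.9 ± 0.807 and *Stat5b* 14.6 ± 0.996 CPM per kb, and their ranges over the 6 libraries overlapped, as did those of *Stat5b* and *Jak2*. *Stat5a* and *Tyk2* changed places, and the separation of *Stat3* from *Stat5b* therefore depends on the length used. Within libraries, *Stat3* took 45.3 ± 2.23% of the counts of the 6 STAT members in OsxCre and 47.1 ± 1.79% in the libraries labelled OsxCre;Stat3fl/fl (SD, n = 3 each, exact permutation p = 0.3). *Jak1* took 59.4 ± 0.671% of the counts of the 3 kinases in OsxCre and 61.5 ± 2.48% in the libraries labelled OsxCre;Stat3fl/fl (SD, n = 3 each, exact permutation p = 0.3). The groups overlapped for both shares, which do not depend on the scaling of libraries.

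**Figure D4:**
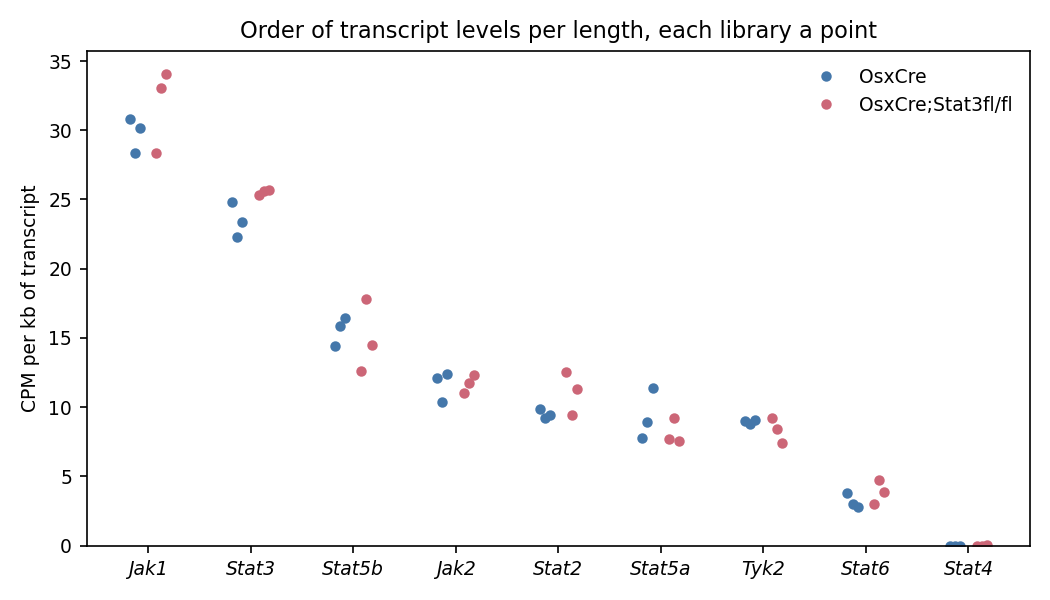
CPM per kb of transcript for the 9 members in each OsxCre (blue) and OsxCre;Stat3fl/fl (red) library, ordered by mean level in OsxCre. With the longest transcript as length, *Jak1* and *Stat3* stand above the rest, at 28.3 to 34.0 and 22.3 to 25.7 CPM per kb, and *Stat4* lies at or near 0.

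Gene models overlap some members, and the strand setting of the counting is not given in the sources used here, so that reads in the shared stretches could be assigned either way. On GRCm38.p6, *Stat2* (chr10:128270498-128292853) overlaps *Apof* by 753 bp, *Stat6* (chr10:127642955-127660987) overlaps *Nab2* by 70 bp and the long noncoding RNA gene *Gm30989* by 4773 bp, *Stat3* overlaps the long noncoding RNA gene *Gm46295* by 1257 bp, and *Jak1* (chr4:101151974-101265282) overlaps *Raver2* by 397 bp. In GENCODE M1, *Stat3* and *Stat5a* overlap by 72 bp, and a processed transcript, 1700084C06Rik, overlaps *Tyk2* over 23270 bp. *Stat4* lies at chr1:51987106-52107189, *Jak2* at chr19:29251803-29313095 and *Tyk2* at chr9:21104068-21131393 on GRCm38.p6.

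Among 131 genes ranked, which were the other 7 members tested, the tested genes of the pathway and the tested neighbours of *Stat3* on chromosome 11, the genes whose pattern over the 6 libraries was closest to that of *Stat3* were *Il6st*, *Pias4* and *Ptpn11*, with root mean square differences of 0.033, 0.051 and 0.062 on the scale of centred log2(CPM + 1). *Il6st*, which encodes the gp130 chain, had 193, 169 and 180 CPM in OsxCre and 187, 199 and 204 CPM in the libraries labelled OsxCre;Stat3fl/fl. *Pias4* encodes a SUMO ligase that restrains STAT activity, and *Ptpn11* the phosphatase SHP2. Genes with small changes are favoured by this measure, which is a description of these libraries.

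The libraries held 8193651 to 12080044 counts, with every library labelled OsxCre;Stat3fl/fl smaller than every control, and TMM factors were between 0.932 and 1.04. All 10 osteoblast markers were tested and summed to 14349 to 19335 CPM in OsxCre and 13329 to 16969 CPM in the libraries labelled OsxCre;Stat3fl/fl. *Ibsp*, which encodes bone sialoprotein, was the 1 osteoblast marker called by edgeR and by limma-voom at an adjusted p of 0.05, and it fell from 1003 ± 65.3 to 633 ± 27.2 CPM (SD, n = 3 each, log2 fold change -0.66, edgeR adjusted p = 0.0213). *Alpl*, the bone alkaline phosphatase, had a log2 fold change of -0.54 with an edgeR adjusted p of 0.0578, and DESeq2's Wald test called 2 osteoblast markers lower, *Ibsp* and *Alpl*. Of the 10 osteoblast markers, 3 had positive and 7 negative fold changes, and 2 passed an unadjusted p of 0.05, both lower. Of the other cell types, the summed levels of muscle, neutrophil and erythroid markers lay apart between the genotypes. The 8 skeletal muscle markers summed to 30003 to 32171 CPM in OsxCre and 35300 to 52614 CPM in the libraries labelled OsxCre;Stat3fl/fl, the 6 neutrophil markers to 266 to 456 and 114 to 189 CPM, and the 5 erythroid markers to 2952 to 4826 and 1596 to 2819 CPM, and none of these markers was at 0 in every library. In edgeR at an adjusted p of 0.05, 1 of 8 muscle markers was higher and 1 of 5 neutrophil markers tested was lower. At an unadjusted p of 0.05 in edgeR, 6 of the 8 muscle markers were higher and 4 of the 5 neutrophil markers lower. Of the 5 erythroid markers, 0 were called by edgeR, DESeq2 or limma-voom, and 2 were lower at an unadjusted p of 0.05 in edgeR. DESeq2's Wald test called 6 muscle markers higher and 3 neutrophil markers lower, and limma-voom 1 and 1. Of all 15600 genes, DESeq2's Wald test called 527 and limma-voom 180, in either direction. In edgeR, 0.776% of all genes were higher and 0.481% lower at an adjusted p of 0.05. At an unadjusted p of 0.05 these shares were 8.03% and 8.34%. The part of these 3 sums in the values of the members and of the pathway genes was not tested. The 6 macrophage and osteoclast markers read summed to 2275 to 2624 CPM in OsxCre and 2001 to 2711 CPM in the libraries labelled OsxCre;Stat3fl/fl, which overlap. *Xist* had 7333 to 12392 counts in every library while, of 4 genes on the Y chromosome, *Kdm5d* and *Ddx3y* were at 0 and *Eif2s3y* and *Uty* at 0 or 1, whereas the study's text describes male newborns.

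The other genes of the pathway were read from lists of ligands, receptors, inhibitors, partners and textbook targets, 138 genes in all, of which 110 were tested. By edgeR's quasi-likelihood test, 3 of the 110 were higher at an adjusted p of 0.05, beside 0.776% of all genes, and 1 was lower, beside 0.481%. At an unadjusted p of 0.05, 24 were higher (8.03% of all genes) and 9 lower (8.34% of all genes). The median log2 fold change over the 110 was 0.030. DESeq2's Wald test and limma-voom called 0 ligands, inhibitors, partners and textbook STAT4 and STAT5 targets at an adjusted p of 0.05, as edgeR did, and their calls in the other lists are given with each list. These calls stand beside 527 of all 15600 genes with DESeq2's Wald test and 180 with limma-voom, in either direction. The calls made in edgeR were *Cebpd*, *Oasl2* and *Irf7*, which rose, and *Ccl24*, which fell.

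Ligand genes were mostly near the floor, and 9 of 28 were tested. In edgeR, 0 of the 9 passed an adjusted p of 0.05 and 0 an unadjusted p of 0.05, and their median log2 fold change was -0.087. *Lif*, the leukaemia inhibitory factor, had 7.47 ± 0.513 CPM in OsxCre and 8.16 ± 1.84 CPM in the libraries labelled OsxCre;Stat3fl/fl, and *Clcf1*, a ligand of the CNTF receptor, had 7.07 ± 1.16 and 9.11 ± 1.39 CPM (SD, n = 3 each). *Il10*, named after its values were seen, encodes a cytokine that acts through JAK1, TYK2 and STAT3 in myeloid cells. It had 1, 1 and 0 counts in OsxCre and 15, 3 and 19 counts in the libraries labelled OsxCre;Stat3fl/fl, too few to pass the filter, and every one of the latter lay above the controls. In the fit without the filter, which called 428 of 28016 genes, the edgeR adjusted p of *Il10* was 0.0155. Its counts in OsxCre were under the floor, and the 3 counts of OsxCre;Stat3fl/fl library 2 were at the floor, so no fold change is given. *Lep*, the leptin gene and also named after its values were seen, had 9, 8 and 16 counts in OsxCre and 1, 2 and 2 in the libraries labelled OsxCre;Stat3fl/fl, lower without overlap and likewise left out by the filter. In the fit without the filter, its edgeR adjusted p was 0.0896.

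Of 32 receptor genes, 28 were tested, with 0 called at an adjusted p of 0.05 in edgeR, 5 higher and 2 lower at an unadjusted p of 0.05, and a median log2 fold change of -0.046. The most counted were *Il6st*, with a log2 fold change of 0.12 (standard error 0.080), and *Il11ra1*, the interleukin 11 receptor, with 171 ± 6.88 and 168 ± 12.5 CPM (SD, n = 3 each). Named after their values were seen, *Il4ra* and *Osmr*, the receptor chains for IL-4 and oncostatin M, came closest to the threshold. *Il4ra* had 512, 397 and 543 counts in OsxCre and 566, 473 and 619 counts in the libraries labelled OsxCre;Stat3fl/fl, or 44.6 ± 4.76 and 66.1 ± 7.38 CPM (SD, n = 3 each, log2 fold change 0.57, edgeR adjusted p = 0.0657). *Osmr* had 31.5, 24.5 and 25.5 CPM against 40.8, 39.8 and 38.7 CPM (log2 fold change 0.55, edgeR adjusted p = 0.0683). For both, every CPM value in the libraries labelled OsxCre;Stat3fl/fl lay above every control, without passing the adjusted threshold in edgeR. Of the 28 receptors tested, the groups lay apart for 5 that were higher and 4 that were lower, beside 23.0% of all genes in either direction. DESeq2's Wald test called these 2 receptors higher at an adjusted p of 0.05, and limma-voom called 0. *Lifr*, the receptor for leukaemia inhibitory factor, was listed with 0, 0 and 2 counts in OsxCre and 0, 0 and 1 in the libraries labelled OsxCre;Stat3fl/fl.

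All 22 inhibitor genes were tested, with 0 called at an adjusted p of 0.05 in edgeR, 2 higher and 3 lower at an unadjusted p of 0.05, and a median log2 fold change of 0.0024. *Ptprd*, a receptor phosphatase that can act on STAT3, had 179 ± 7.47 CPM in OsxCre and 151 ± 6.57 CPM in the libraries labelled OsxCre;Stat3fl/fl (SD, n = 3 each), a log2 fold change of -0.25 with an edgeR adjusted p of 0.150. *Sh2b3*, the adaptor LNK that restrains JAK2, had 64.5 ± 7.14 and 63.3 ± 5.18 CPM (SD, n = 3 each). All 14 partner genes were tested, with 0 called at an adjusted p of 0.05 in edgeR, 3 higher and 0 lower at an unadjusted p of 0.05, and a median of 0.0080. *Ptpn11* had a log2 fold change of 0.063 (standard error 0.073) and *Ndufa13*, a complex I subunit also known to bind STAT3, one of 0.074 (standard error 0.11). *Irf9*, the partner of *Stat2* in ISGF3, named after its values were seen, had 29.8, 26.7 and 29.2 CPM in OsxCre and 38.8, 34.7 and 40.6 CPM in the libraries labelled OsxCre;Stat3fl/fl (log2 fold change 0.41, edgeR adjusted p = 0.0954).

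Target genes were grouped by the STAT they are best known for. Of 18 textbook STAT3 targets, all tested, 1 rose and 0 fell at an adjusted p of 0.05 in edgeR, 8 were higher and 3 lower at an unadjusted p of 0.05, and the median log2 fold change was 0.23. *Cebpd*, a C/EBP transcription factor of the acute-phase response, had 25.0, 19.2 and 22.5 CPM in OsxCre and 47.1, 60.1 and 46.3 CPM in the libraries labelled OsxCre;Stat3fl/fl. The groups lay far apart, with a log2 fold change of 1.20 (standard error 0.14, edgeR adjusted p = 0.0142). In fits that left out 1 library, *Cebpd* kept an adjusted p under 0.05 in 5 of 6, and the highest was 0.0715. DESeq2's Wald test called 5 genes of this list higher, *Cebpd*, *Fos*, *Il4ra*, *Mcl1* and *Osmr*, and limma-voom *Cebpd* alone. *Mcl1*, which encodes an anti-apoptotic BCL2 protein, had 228 ± 15.3 and 289 ± 7.87 CPM (SD, n = 3 each, log2 fold change 0.34, edgeR adjusted p = 0.0957). *Vegfa*, the angiogenic growth factor, had 152, 150 and 244 CPM in OsxCre and 117, 132 and 130 CPM in the libraries labelled OsxCre;Stat3fl/fl (log2 fold change -0.53, edgeR adjusted p = 0.212). Well-known STAT3 targets thus had values on both sides of 0, and *Cebpd* rose in libraries whose label names a *Stat3* deletion.

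Of 12 textbook targets of ISGF3, the complex that holds STAT2, all tested, 2 rose and 0 fell at an adjusted p of 0.05 in edgeR, and 9 were higher and 0 lower at an unadjusted p of 0.05. All 12 fold changes were positive, with a median of 0.65 on the log2 scale and a range from 0.33 to 1.00. Of all genes tested in edgeR, 50.7% had negative fold changes. The shares of all genes that were higher were 0.776% at an adjusted and 8.03% at an unadjusted p of 0.05. The list was chosen with earlier results of these data known, so its shared direction is a description of these libraries. *Oasl2*, an interferon-induced antiviral gene, had 158, 158 and 181 counts in OsxCre and 279, 207 and 279 counts in the libraries labelled OsxCre;Stat3fl/fl, or 15.3 ± 0.328 and 30.5 ± 4.46 CPM (SD, n = 3 each). Its log2 fold change was 1.00 (with a standard error of 0.13 and an edgeR adjusted p = 0.0180). *Irf7*, the factor that amplifies interferon production, had 13.4, 15.5 and 15.4 CPM against 25.8, 23.2 and 28.0 CPM, so that its log2 fold change was 0.80 (with a standard error of 0.12, edgeR adjusted p = 0.0279). In CPM, each of the libraries labelled OsxCre;Stat3fl/fl lay above every control for both genes. Each of these calls held in 1 of 6 fits that left out 1 library, where the adjusted p rose to 0.102 for *Oasl2* and 0.126 for *Irf7*. *Ifit3* had 13.6 ± 1.24 and 23.7 ± 6.56 CPM (SD, n = 3 each, edgeR adjusted p = 0.123) and was the third gene called higher by DESeq2's Wald test, beside *Oasl2* and *Irf7*. With limma-voom, *Oasl2* and *Irf7* alone were called in this list, both higher. *Rsad2*, which encodes viperin, had 8.37, 7.04 and 26.4 CPM in OsxCre, of which library 3 lay above all others, and 21.9, 19.6 and 20.1 CPM in the libraries labelled OsxCre;Stat3fl/fl. Genes of this list respond together to interferon and are not independent of one another.

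Of 8 textbook STAT6 targets, 5 were tested, with 0 called higher and 1 lower at an adjusted p of 0.05 in edgeR, and a median log2 fold change of -0.24. Of the 5 fold changes, 3 were negative and 2 positive. The positive ones, named after their values were seen, were those of *Chil3* and *Mrc1*. They were 1.46 (standard error 0.69) and 0.53 (standard error 0.30) on the log2 scale, with edgeR adjusted p of 0.343 and 0.432. *Ccl24*, the eosinophil attractant eotaxin-2, had 6.38, 5.95 and 7.80 CPM in OsxCre and 2.52, 3.43 and 2.57 CPM in the libraries labelled OsxCre;Stat3fl/fl. Its fold change was -1.24 on the log2 scale (standard error 0.23, edgeR adjusted p = 0.0498). It lost its call in each of 6 fits that left out 1 library, where the adjusted p rose to 0.189, and with limma-voom, which called 0 genes of this list. DESeq2's Wald test called *Ccl24* alone in this list, and lower. *Ccl11* had 8.43 ± 0.273 and 6.79 ± 0.390 CPM and *Socs1* 10.4 ± 0.416 and 8.77 ± 1.72 CPM (SD, n = 3 each), with edgeR adjusted p of 0.361 and 0.568. Of 9 textbook STAT5 targets, 7 were tested, with 0 called in edgeR at an adjusted p of 0.05, 1 higher and 0 lower at an unadjusted p of 0.05, and a median of -0.18. *Socs2*, a feedback inhibitor of growth hormone signalling, had 48.4 ± 4.95 and 53.5 ± 3.58 CPM, and *Igf1* had 276 ± 14.1 and 243 ± 28.0 CPM (SD, n = 3 each). Of 7 textbook STAT4 targets, 4 were tested, with 0 called in edgeR at an adjusted and 0 at an unadjusted p of 0.05, and a median of -0.057. *Furin* and *Map3k8* had log2 fold changes of 0.22 (standard error 0.12) and 0.068 (standard error 0.18).

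**Figure D5:**
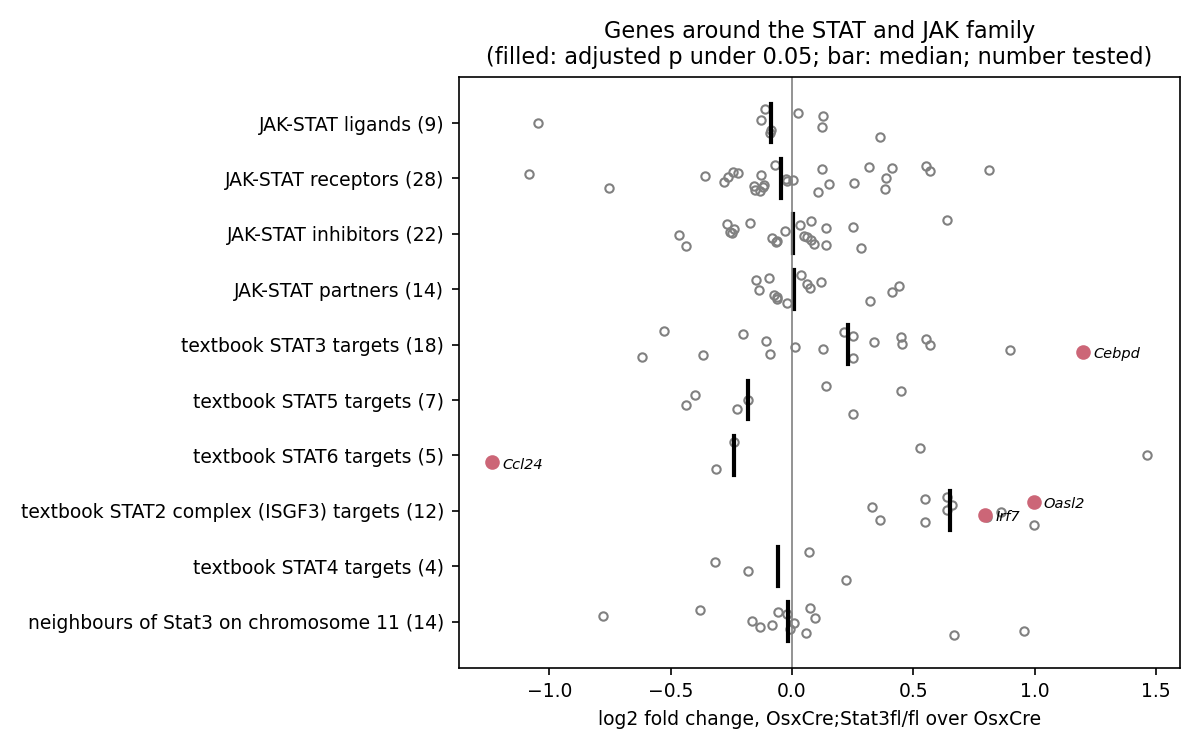
Log2 fold change, OsxCre;Stat3fl/fl over OsxCre, of each tested gene of the pathway lists (circles, filled where the adjusted p was under 0.05), with the median of each list as a black bar and the number tested in brackets. The ISGF3 targets all lie above 0, with a median of 0.65, whereas the medians of ligands, receptors, inhibitors and partners lie between -0.087 and 0.0080. Those of the textbook STAT3, STAT4, STAT5 and STAT6 targets are 0.23, -0.057, -0.18 and -0.24. The lists were chosen with earlier results of these data known.

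Of 17 genes that neighbour *Stat3* on chromosome 11, 14 were tested, with 0 called in edgeR at an adjusted p of 0.05, 2 higher and 2 lower at an unadjusted p of 0.05, and a median of -0.015. The most counted, *Ptrf*, which encodes cavin-1, had 605 ± 54.0 and 596 ± 56.4 CPM, and *Rab5c*, an endosomal GTPase, had 154 ± 3.36 and 148 ± 1.54 CPM (SD, n = 3 each). The 4 at an unadjusted p of 0.05, *Atp6v0a1* and *Dhx58* higher and *Psmc3ip* and *Tubg1* lower, were named after their values were seen. DESeq2's Wald test called 1 of them, *Dhx58*, at an adjusted p of 0.05, and limma-voom 0.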

How the data were processed

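Per the labels, polyadenylated RNA from 6 parietal bone samples was sequenced with a TruSeq kit. The authors deposited whole-number read counts per gene symbol, without normalization. The submitters' processing notes name HISAT2 and GRCm38, whereas the paper's methods name TopHat and mm9, with Cufflinks for expression values and Cuffdiff for the comparison. The program that made the deposited counts, its annotation and its strand setting are not given in the sources used here. The replicate libraries are labelled as separate samples, and no pair of one genotype agreed within sampling noise, with a chi-square per degree of freedom of 7.51 to 15.6.

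Low genes were removed with filterByExpr (count minimum 10, total minimum 15), and TMM-scaled counts were compared with edgeR 4.0.16 (R 4.3.3), using its two-sided quasi-likelihood test. The p-values were adjusted by the method of Benjamini and Hochberg over all 15600 genes tested. CPM use the TMM-scaled library size. The standard error was the size of the log2 fold change divided by the square root of F. Single values were compared by exact permutation tests over libraries (scipy 1.17.1). The floor was 3 counts per library. Depth of 8193651 to 12080044 counts per library limits precision for low genes. Alternatives were other scalings, no filter, DESeq2 1.42.0, limma-voom (limma 3.58.1), the replicate number as a block and leaving out each library. The steps were tested on simulated counts.

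Positions came from RefSeq (GRCm38.p6), matched by symbol (75.5% of 44556 symbols matched with synonyms), and exons, lengths and sequences from GENCODE M1 on NCBIM37. The members and lists were chosen with earlier results of these data known. All members were described, and of each list the genes called, up to 6, and then the 2 most counted. The 3 genes closest to *Stat3* over libraries were also named. Other genes were named after their values were seen. Plots were made with matplotlib 3.10.9.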

Additional observations from a re-analysis of the deposited data

How the results depend on the processing

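In each of the 13 other settings 0 members passed an adjusted p of 0.05, and the log2 fold changes of *Stat2*, *Stat3*, *Stat5a*, *Stat6*, *Jak1* and *Tyk2* kept their sign. Leaving out 1 library nonetheless moved them, at the extremes to 0.13 and 0.33 for *Stat2* (without OsxCre;Stat3fl/fl library 1 and 2), -0.31 and -0.035 for *Stat5a* (without OsxCre library 1 and 3), 0.11 and 0.43 for *Stat6* (without OsxCre;Stat3fl/fl library 2 and OsxCre library 1), 0.046 and 0.17 for *Jak1* (without OsxCre;Stat3fl/fl library 3 and 1) and -0.020 and -0.17 for *Tyk2* (without OsxCre;Stat3fl/fl library 3 and 1), with 0.080 to 0.17 for *Stat3*. *Stat5b* turned to 0.054 without OsxCre;Stat3fl/fl library 1, within a range from -0.19 to 0.054 when 1 library was left out. *Jak2* turned to -0.039 with library totals, -0.0026 without the filter for low counts, -0.074 without OsxCre library 2 and -0.034 without OsxCre;Stat3fl/fl library 3, within a range from -0.074 to 0.053 when 1 library was left out. Of the pathway lists with the neighbours of *Stat3*, 3 genes higher became 8 without the filter, 9 with DESeq2's Wald test (7 and 8 without the neighbours) and 0 with the replicate block, and 0 to 5 when 1 library was left out. The 1 gene lower became 0 with limma-voom, 0 with the replicate block and 0 in every fit that left out 1 library. Over all genes, 196 calls became 428 without the filter, 527 with DESeq2's Wald test and 1 with the replicate block. Leaving out 1 library gave 12 calls (without OsxCre;Stat3fl/fl library 3) to 103 (without OsxCre library 3), with 39 to 97 for the others. The causes of these moves were not tested. The shares of *Stat5a*, *Stat3* and *Jak1* kept their direction in every alternative, the differences ranging from -2.89 to -0.13, 1.07 to 3.13 and 1.13 to 3.49 percentage points when 1 library was left out.

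Same-numbered libraries had correlations of -0.10, -0.53 and -0.069 in their deviations from the genotype means, which gave no sign that the numbers pair the samples. Whether litters or batches link libraries across genotypes in another way was not tested. With library totals, the median of all genes moved to -0.050. The width of the intervals, up to that of *Stat6*, limits what can be said of small changes.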
